A study of Mus musculus with 22 samples.

Results

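The position of MTF2 inside domains of H3K27me3 was measured in wild-type mouse embryonic stem cells. H3K27me3 is trimethylation of lysine 27 of histone H3. The members were all 6294 regions of the wild-type H3K27me3 list, called domains here, and the 6064 of 6357 wild-type MTF2 peaks that touched one of them by at least 1 bp. No MTF2 peak touched more than 1 domain, and 293 peaks touched none. Each domain was placed in a class by the number of MTF2 peaks in it: 0, 1, 2, or 3 and more. For each class the width of the domains, the share of their bases under MTF2, the position of the peaks between centre and edge, and the genes were described.

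The study profiled chromatin by ChIP-seq, the sequencing of DNA recovered with an antibody, in 22 libraries of 12 groups, of which 7 region lists with 76045 regions were read. The wild-type lists used are MTF2, H3K27me3, EZH2 and H3K4me3 of E14 cells, an established mouse embryonic stem cell line. The lists of H3K27me3 and EZH2 from cells labelled Mtf2 GT/GT, in which a gene-trap cassette disrupts the Mtf2 coding sequence on both alleles, were set beside them. All cells were grown in serum with LIF and had no further treatment. The labels name neither the parental line of the gene-trap cells nor the number of clones, so genotype and line cannot be told apart. All 29 listed pluripotency genes, Pou5f1, Nanog and Sox2 among them, had an H3K4me3 region at the promoter, and 3 of them had an H3K27me3 domain. Over all protein-coding genes 4206 of 21840 had such a domain. The share of all genes with H3K4me3 was not counted, so these counts do not identify the cells.

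Polycomb repressive complex 2 (PRC2) writes H3K27me3, with EZH2 as its catalytic subunit and EED and SUZ12 as core partners. MTF2 is one of the Polycomb-like accessory subunits, with PHF1 and PHF19, and binds DNA at CpG islands, which are stretches rich in the dinucleotide CG. In embryonic stem cells the mark lies over the promoters of silent developmental genes, many of which also carry H3K4me3, the mark of CpG-island promoters.

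Each list holds positions only, with 2 libraries per list and no score, read count or value per library. So there is no replicate error and no depth, and no test between classes was made. The labels do not say whether the libraries came from separate cultures. Intervals below are 95% intervals, exact binomial (Clopper-Pearson) for shares and from order statistics for medians. They cover counting over regions only, and neighbouring regions of 1 cell population are not independent samples. A peak absent from a list can be a weak peak under the threshold used; this was not tested.

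The following stretches of 200 bp show the DNA under MTF2 and in the same domain away from it. They are from GRCm38, plus strand, written 5′ to 3′ in lower case with each CpG in capitals. Grin2d, Six3 and Pax5 were taken by rule, as the listed genes with the widest domain among those with 0, 1 and 2 MTF2 peaks. The rule's window for the class with 3 or more, at Hoxb1, overlapped an untranslated exon and is not printed. Shh and Lhx4 were added from the named genes after their values were seen. Shh stands for a CpG-rich peak centre and Lhx4 for a peak whose midpoint is poorer in CpG than the flank. The Grin2d stretch is the centre of a domain with no MTF2 peak, in an intron (chr7:45869352-45869551, 5 CpGs). The Six3 pair is the centre of the MTF2 peak, inside the Six3 gene and in an exon of the noncoding Six3os1 (chr17:85616963-85617162, 8 CpGs), and a point midway between peak and nearer domain edge, in a Six3os1 intron (chr17:85605980-85606179, 2 CpGs). The Pax5 pair is the centre of its widest MTF2 peak (chr4:44712626-44712825, 5 CpGs) and the point midway to the edge (chr4:44717705-44717904, 3 CpGs), both intergenic. The Shh pair is an intron of Shh (chr5:28464767-28464966, 16 CpGs) and a point beyond the gene's start, in introns of noncoding transcripts (chr5:28468370-28468569, 2 CpGs). Both Lhx4 stretches are intronic (chr1:155739666-155739865, 2 CpGs, and chr1:155746974-155747173, 5 CpGs).
Grin2d, domain centre without MTF2: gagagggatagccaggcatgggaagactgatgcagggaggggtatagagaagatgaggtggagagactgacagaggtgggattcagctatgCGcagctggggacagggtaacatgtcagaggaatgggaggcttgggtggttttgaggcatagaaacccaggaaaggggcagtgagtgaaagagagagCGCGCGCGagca
Six3, under MTF2: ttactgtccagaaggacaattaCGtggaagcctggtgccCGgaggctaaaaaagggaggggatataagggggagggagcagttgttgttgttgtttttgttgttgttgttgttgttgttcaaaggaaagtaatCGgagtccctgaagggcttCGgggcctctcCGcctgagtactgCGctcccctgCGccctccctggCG
Six3, flank without MTF2: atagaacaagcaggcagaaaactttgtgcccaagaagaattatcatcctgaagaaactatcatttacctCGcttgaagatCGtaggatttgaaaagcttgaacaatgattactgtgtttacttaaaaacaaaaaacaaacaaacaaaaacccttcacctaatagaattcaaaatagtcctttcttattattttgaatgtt
Pax5, under MTF2: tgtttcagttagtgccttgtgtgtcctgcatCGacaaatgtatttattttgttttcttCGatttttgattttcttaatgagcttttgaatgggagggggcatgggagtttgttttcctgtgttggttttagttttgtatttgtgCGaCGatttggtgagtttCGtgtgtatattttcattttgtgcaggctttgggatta
Pax5, flank without MTF2: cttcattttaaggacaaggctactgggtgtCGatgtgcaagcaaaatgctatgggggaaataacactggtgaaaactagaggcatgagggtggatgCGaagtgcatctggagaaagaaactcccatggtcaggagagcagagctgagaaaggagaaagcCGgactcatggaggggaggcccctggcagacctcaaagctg
Shh, under MTF2: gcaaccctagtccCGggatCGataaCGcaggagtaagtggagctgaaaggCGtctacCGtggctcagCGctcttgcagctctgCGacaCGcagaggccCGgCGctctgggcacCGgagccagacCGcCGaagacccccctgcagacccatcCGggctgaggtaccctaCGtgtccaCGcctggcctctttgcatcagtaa
Shh, flank without MTF2: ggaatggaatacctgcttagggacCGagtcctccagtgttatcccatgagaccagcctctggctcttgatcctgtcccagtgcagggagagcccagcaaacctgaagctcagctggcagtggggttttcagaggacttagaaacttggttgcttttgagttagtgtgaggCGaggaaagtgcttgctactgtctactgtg
Lhx4, under MTF2: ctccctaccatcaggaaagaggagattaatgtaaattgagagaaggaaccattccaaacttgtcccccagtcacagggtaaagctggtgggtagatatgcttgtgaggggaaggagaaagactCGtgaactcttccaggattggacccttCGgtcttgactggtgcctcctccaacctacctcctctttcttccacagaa
Lhx4, flank without MTF2: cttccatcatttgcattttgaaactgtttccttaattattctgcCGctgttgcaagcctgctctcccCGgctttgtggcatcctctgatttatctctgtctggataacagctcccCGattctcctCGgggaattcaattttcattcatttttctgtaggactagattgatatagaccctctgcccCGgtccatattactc

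Most domains held no MTF2 peak or a single one. Of the 6294 domains, 1985 (31.5%, 30.4 to 32.7) held none, 3465 (55.1%, 53.8 to 56.3) held 1, 521 (8.28%, 7.61 to 8.99) held 2, and 323 (5.13%, 4.60 to 5.71) held 3 or more. In the last class 145 domains held 3 peaks, 58 held 4 and 17 held 10 or more, up to 35. The 323 domains with 3 or more peaks made up 18.2% of all domain bases, and the 1985 without a peak 17.4%.

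Domains with more MTF2 peaks were wider. Median widths were 2137 bp (2079 to 2195) with no peak, 4017 bp (3929 to 4092) with 1, 6250 bp (5880 to 6604) with 2 and 13987 bp (12702 to 15464) with 3 or more. The intervals of the medians did not overlap, while the domains themselves did. The middle 50% of widths ran from 1372 to 3101 bp without a peak, from 2938 to 5433 bp with 1, from 4305 to 8609 bp with 2 and from 8781 to 20225 bp with 3 or more. A wider domain has more room for peaks, and the classes are set by the peak number, so peaks per length were taken by width. In 5 equal classes of width, from narrow to wide, there were 0.195, 0.232, 0.236, 0.204 and 0.193 MTF2 peaks per kb of domain, with no rise toward the wide domains.

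**Figure D1:**
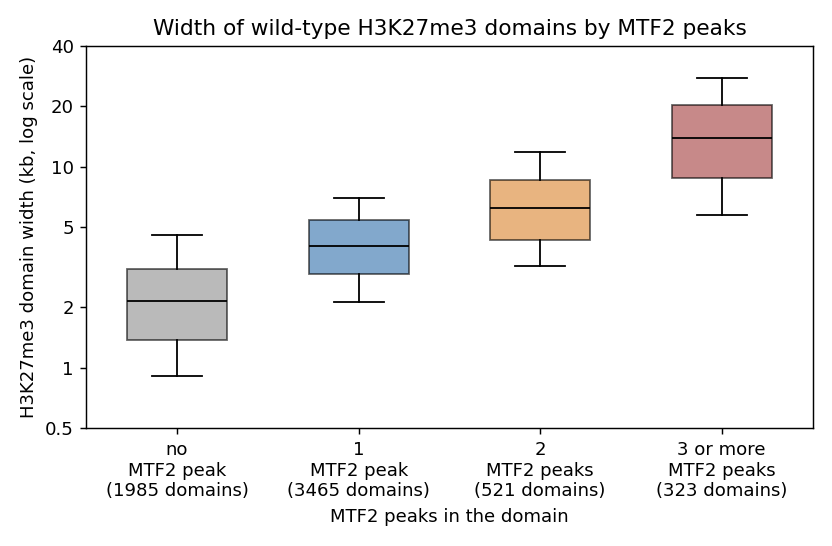
Width of the wild-type H3K27me3 domains in kb on a log axis, by the number of MTF2 peaks in the domain. Boxes span the middle 50% of domains with a line at the median, and whiskers reach the 10th and 90th percentiles. The medians step up from 2137 bp without a peak to 13987 bp with 3 or more.

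When the domains were split into 5 equal classes of width, the share without an MTF2 peak went from 74.1% of the narrowest (248 to 2062 bp) through 43.4%, 21.1% and 12.2% to 6.84% of the widest (6071 to 133253 bp). Domains with 3 or more peaks were absent from the 2 narrowest classes. They were 0.477% and 2.54% of the next 2 classes and 22.7% of the widest. So even among the widest domains most had fewer than 3 peaks.

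MTF2 covered a minority of the domain. The median share of bases under MTF2 was 24.3% (23.8 to 24.8) with 1 peak, 29.8% (28.0 to 31.2) with 2 and 42.3% (40.8 to 44.0) with 3 or more. MTF2 covered 50% or more of the domain in 151 of 3465, 73 of 521 and 105 of 323 domains, and under 10% in 303 domains in all. The MTF2 peaks themselves had median widths of 935, 727 and 943 bp in the 3 classes.

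In domains with a single peak, the peak scaled with the domain. From the narrowest to the widest of the 5 width classes the median MTF2 length was 361, 578, 815, 1289 and 2042 bp, which is a median covered share of 23.9%, 21.6%, 22.5%, 25.6% and 27.2%. Across the 3465 domains the covered length and the domain width had a Spearman rho of 0.695, and 0.674 as Pearson r of log2 values. For domains with 2 peaks rho was 0.646 (n = 521) and for 3 or more 0.865 (n = 323). These are descriptions across domains of the same 2 lists, and a peak inside a domain cannot be longer than it.

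Only 6 domains lay wholly under an MTF2 peak. They were 300 to 422 bp wide with 1 exception of 5621 bp, chr17:39843193-39848813. RefSeq places there an 18S ribosomal RNA pseudogene, Rn18s-rs5, and the noncoding AY036118, which lie in sequence with many near-identical copies, so the read placement in this region is uncertain.

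Single MTF2 peaks lay near the middle of the domain. Position was measured as the distance between the midpoints of peak and domain, divided by the largest distance that a peak of that width can have inside the domain. It is 0 at the centre and 1 where the peak touches an edge, and even placement gives a median of 0.5 and puts 50% of peaks below 0.5, the central 50% of positions. Of 3465 single peaks, 3177 lay wholly inside the domain, and their median scaled distance was 0.227 (0.216 to 0.236). In the central 50% of positions were 82.8% of them (81.4 to 84.1), in the central 20% 45.3%, and in the outer 20% 4.31%. The median peak was 335.5 bp off the domain centre, with 1158 bp of H3K27me3 on its nearer side and 1915 bp on the other. A single peak crossed 1 edge of the domain in 282 cases and spanned it in 6. These peaks are left out of the shares above, which favours central placement. Of all 3465 single peaks, 2630 lay wholly inside and in the central 50%.

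In domains with 2 peaks, 994 of 1042 peaks lay wholly inside, with a median scaled distance of 0.334 (0.315 to 0.352) and 70.0% in the central 50%. With 3 or more peaks, 1531 of 1557 lay inside, at a median of 0.452 (0.433 to 0.475), and 55.8% (53.3 to 58.4) were in the central 50%. Several peaks in 1 domain cannot all sit at its centre. Taken from the start of the first peak to the end of the last, the MTF2 stretch was again central. This was measured for the stretches wholly inside the domain, 474 of 521 with 2 peaks and 297 of 323 with 3 or more. Their median scaled distance was 0.230 with 2 peaks and 0.240 with 3 or more, and 83.1% and 84.8% of them were in the central 50%. Stretches that crossed an edge are left out.

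**Figure D2:**
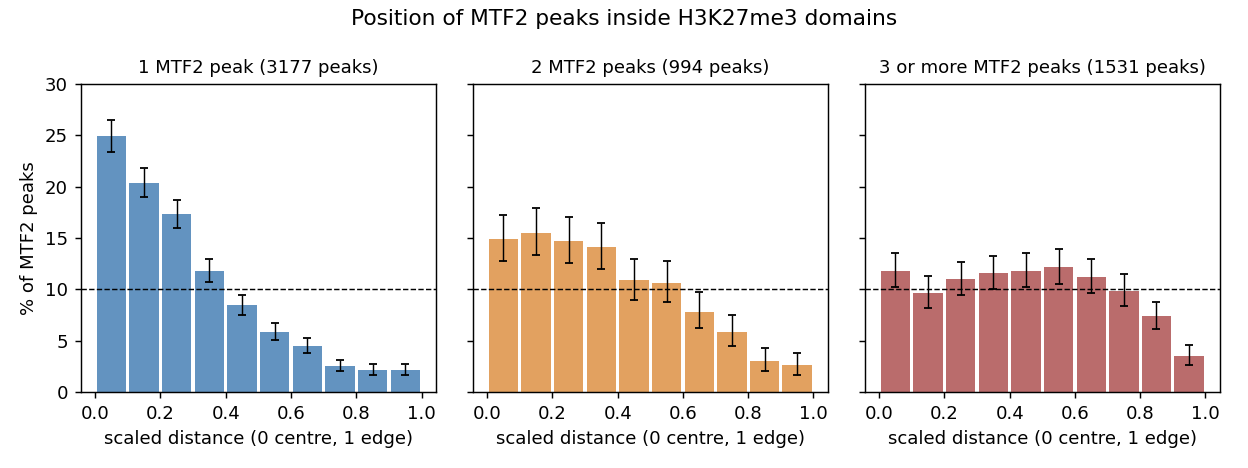
Share of MTF2 peaks wholly inside a domain in 10 bins of scaled distance from the domain centre (0) to touching its edge (1), with 95% binomial intervals. The dashed line is the level that even placement gives for a peak alone in its domain. That level was not derived for several peaks in 1 domain, which exclude one another. Single peaks pile up at the centre. The peaks of domains with 3 or more lie between 9.67% and 12.1% in each of the 8 inner bins. In the outer bins they are at 7.38% and 3.53%.

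Single peaks were central in the 4 wider of the 5 width classes. From narrow to wide the median scaled distance was 0.438, 0.282, 0.220, 0.193 and 0.199, and 55.9%, 73.2%, 82.8%, 90.1% and 89.2% of the peaks lay in the central 50%. In the narrowest class the interval, 48.8 to 62.8%, includes the 50% of even placement. There 111 of the 315 single peaks were not wholly inside the domain and are left out of these values, against 116 of 675, 44 of 912, 13 of 947 and 4 of 616 in the wider classes.

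The peaks of 1 domain stood close together. The median gap between neighbouring MTF2 peaks was 214 bp with 2 peaks (183 to 252) and 351.5 bp with 3 or more (300 to 404), and 78.5% and 68.4% of the gaps were under 1 kb. The longest were 15848 bp and 12953 bp. From first to last peak MTF2 spanned a median of 42.2% of the domain with 2 peaks and 67.9% with 3 or more. The widest peak held a median of 71.1% and 49.0% of the MTF2 bases, and it was the peak nearest the centre in 65.3% and 39.3% of domains. Since many gaps are short, the class depends on where a peak was split: with MTF2 peaks under 1 kb apart joined, 226 domains held 2 and 96 held 3 or more.

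MTF2 shared its central place with EZH2. In 10 rings from centre to edge, MTF2 covered 58.6% of the innermost ring and 4.99% of the outermost in domains with 1 peak, and EZH2 60.7% and 5.20%. With 3 or more peaks MTF2 went from 61.7% to 6.62% and EZH2 from 69.2% to 7.54%. H3K4me3 went from 76.5% to 13.6% with 1 peak and from 49.1% to 11.99% with 3 or more. In domains without MTF2, EZH2 covered 3.67% of the innermost and 1.39% of the outermost ring, and H3K4me3 35.9% and 21.0%.

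**Figure D3:**
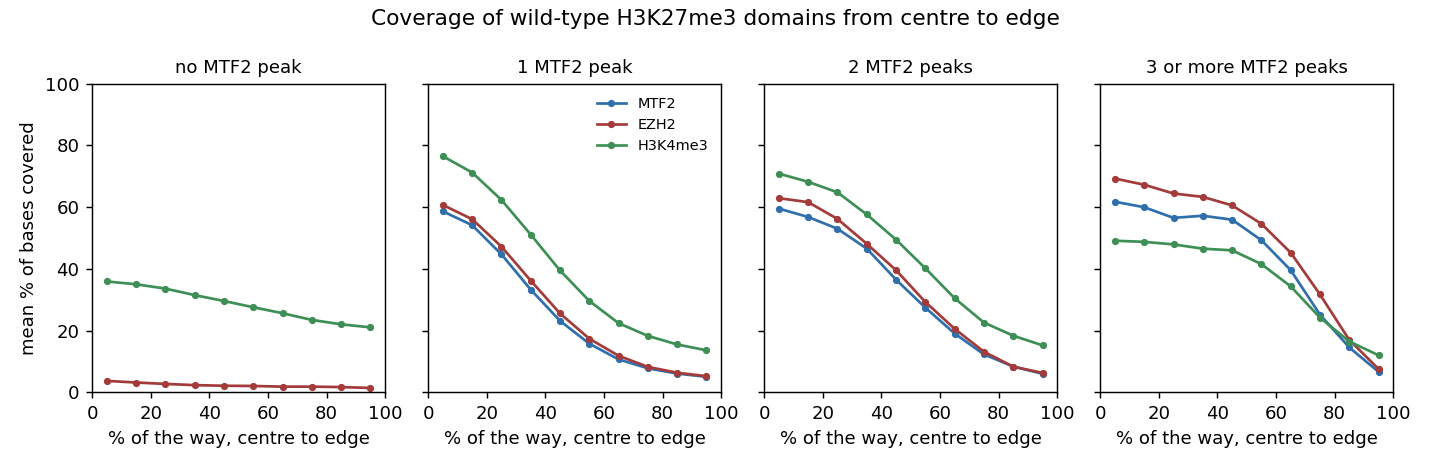
Mean percent of bases under MTF2, EZH2 and H3K4me3 regions in 10 rings from the centre to the edge of the wild-type H3K27me3 domains, one panel per MTF2 class. The MTF2 and EZH2 curves lie close together in the classes with MTF2. In domains without an MTF2 peak the EZH2 curve is near the axis, and no MTF2 curve is drawn because the class has none by definition.

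To set MTF2 against the gene start, the 1814 domains were taken that held 1 MTF2 peak wholly inside, 1 EZH2 region, 1 H3K4me3 region and the starts of 1 protein-coding gene. Where the gene had several starts in the domain, the one farthest upstream was used. This choice favours a start upstream of MTF2 and away from the centre, and other starts were not measured. The median distance from the domain centre was 324 bp for MTF2 (309 to 345), 319 bp for EZH2 (300 to 338), 333 bp for H3K4me3 (315 to 357) and 523 bp for the transcription start (497 to 548). MTF2 was nearer the centre than the transcription start in 1250 domains (68.9%, 66.7 to 71.0), nearer than EZH2 in 48.7% and nearer than H3K4me3 in 52.9%. The transcription start lay under the MTF2 peak in 77.4% of these domains. The MTF2 midpoint lay downstream of it in 88.8%, by a median of 308 bp over all 1814, and the domain midpoint in 77.7%, by 423 bp. From the edges of the MTF2 peak the domain ran 1502.5 bp upstream and 1667 bp downstream, and the downstream side was the longer in 56.2%.

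The domains with more MTF2 peaks more often held a gene start, but a smaller share of their peaks lay on one. A protein-coding transcription start lay inside 22.4% of domains without MTF2, 67.8% with 1 peak, 75.2% with 2 and 86.1% with 3 or more. These shares are per domain and not per length, and the domains with more peaks were also wider. The share of peaks over a start was 56.5%, 32.4% and 22.6% in the 3 classes with MTF2. These domains held a mean of 0.694, 0.804 and 1.07 genes with a start inside. Starts thus rose less than the peak number that defines the classes, so a falling share follows in part from the classes. EZH2 regions were present in 15.8%, 95.4%, 99.8% and 100% of the domains with 0, 1, 2 and 3 or more peaks, and H3K4me3 regions in 60.1%, 97.5%, 99.0% and 99.1%.

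Under MTF2 the DNA was rich in CpG. In domains with 1, 2 and 3 or more peaks there were 7.18, 6.16 and 4.62 CpGs per 100 bp under MTF2 and 1.53, 1.58 and 1.30 in the rest of the domain. Flanks of the same total length outside the domains had 1.19, 1.26 and 1.13. Domains without MTF2 had 2.10 and their flanks 1.59. CpG density was higher under MTF2 than in the rest of the domain in 3441 of 3459 domains with 1 peak, and in all 521 and 323 of the other classes. The densest stretch of 500 bp in the domain held a median of 4.6, 10, 10.8 and 11.6 CpGs per 100 bp with 0, 1, 2 and 3 or more peaks. A wider domain offers more stretches to choose from, so this maximum is not free of width. Whole domains had medians of 2.19, 2.94, 3.09 and 2.84 CpGs per 100 bp. The densest stretch lay under MTF2 in 91.8%, 91.0% and 95.7% of the 3 classes with a peak. Its scaled distance from the domain centre was 0.238 with 1 peak, close to that of MTF2, and 0.558 without a peak. The midpoint of a wide peak need not be rich in CpG, as the 2 CpGs in 200 bp at Lhx4, printed above, show. GC content moved with it, at 62.6% under MTF2 and 47.6% in the rest of domains with 1 peak, and its part in where peaks were called was not tested.

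Among the domains without MTF2, 314 held an EZH2 region and 1671 did not. Those with EZH2 had a median width of 2661 bp (2466 to 2868), H3K4me3 in 86.3% and a promoter in 59.6%, and the others 2066 bp (1965 to 2131), 55.2% and 34.8%. The widest domain without MTF2, chr5:33447187-33478956 with 31770 bp, has no protein-coding promoter and starts next to the end of the Nkx1-1 domain at 33446164. In all, 166 of the 1985 (8.36%) lay within 3 kb of a domain that held MTF2, as did 4.04%, 8.06% and 10.5% of domains with 1, 2 and 3 or more peaks, and whether the list splits 1 wider domain there was not tested.

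By gene, 4206 of 21840 protein-coding genes had a promoter, taken as 1 kb to each side of a transcription start, in a domain. Their domains held no MTF2 peak for 740 genes (17.6%), 1 for 2654 (63.1%), 2 for 454 (10.8%) and 3 or more for 358 (8.51%). With the start itself required inside the domain, 440 genes had none in place of 740. The shares are the background for the gene lists. The median gene had 1 peak and a domain of 4209.5 bp.

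Regulators of development were in the domains with many peaks. Of the 39 Hox genes, which set position along the body axis, 38 lay in domains with 3 or more MTF2 peaks and 1, Hoxd1, in a domain with 2. Evx1 and Evx2, homeobox neighbours of the clusters kept in the same list, also had 3 or more, which makes 40 of 41 over 10 domains. Neural regulators with a domain had 3 or more peaks at 65 of 94 genes. The count was 25 of 40 for mesoderm and heart regulators and 11 of 17 for endoderm regulators. Over all genes with a domain it was 8.51%. With MTF2 peaks under 1 kb apart joined, 142 of all 4206 genes with a domain had 3 or more. The neural, mesoderm and endoderm counts were then 29, 11 and 5, and 39 for the Hox and Evx list. None of the genes of these lists was in a domain without MTF2, against 740 of all 4206 genes with a domain (17.6%). Their median domains were also wide, 16644 bp at neural genes, 14999 bp at mesoderm and heart genes and 15672 bp at endoderm genes. Of all domains in the widest of the 5 width classes, 6.84% had no MTF2 peak. Among the genes in the widest of the 5 width classes, 322 of 1115 (28.9%) had 3 or more peaks. There 3 or more peaks were counted for 63 of 87 genes of the neural list, 24 of 33 of the mesoderm list and 11 of 16 of the endoderm list. The listed genes are among the 1115. This class runs from 6071 to 133253 bp, and its domains had medians of 7185 bp with 1 peak and 15464 bp with 3 or more. So width was not matched within it.

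Among the other lists the genes with 3 or more peaks ran from none of 14 germline genes to 3 of 5 cell cycle inhibitors. Of 46 signalling ligands and inhibitors with a domain, 26 had 1 peak, 10 had 2 and 10 had 3 or more. The 46 neuronal channels and receptors had 3 genes without a peak, 32 with 1, 7 with 2 and 4 with 3 or more, the last near the background of 8.51%. In the widest width class 9 of 27 and 4 of 18 of these 2 lists had 3 or more. Joined as above, where the background is 142 of 4206 genes, 3 signalling genes and no channel gene had 3 or more. Of 20 imprinted genes with a domain, which are expressed from the allele of 1 parent, 13 had 1 peak, 5 had 2 and 2 had 3 or more. Of 14 germline genes 4 had no peak, 8 had 1 and 2 had 2, and of 18 extracellular matrix and epithelial genes 4 had none, 9 had 1, 4 had 2 and 1 had more. The PRC1 list, the second Polycomb complex, had 9 genes with a domain, 4 with 1 peak and 5 with 3 or more (2 when joined). Of 5 cell cycle inhibitors 1 had no peak, 1 had 2 and 3 had 3 or more (2 when joined). Over the lists together, 353 distinct genes had a domain, 13 without MTF2, 121 with 1 peak, 53 with 2 and 166 with 3 or more.

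Of the 13 listed genes of PRC2 and its partners, 1 had a domain, against 4206 of 21840 over all protein-coding genes. The 6 others looked up by name (Ezh2, Suz12, Eed, Mtf2, Phf1, Jarid2) had none. Phf19, a relative of Mtf2, had a domain of 2381 bp (chr2:34912476-34914856). It held 1 MTF2 peak of 1339 bp over the transcription start, 56.2% of the domain, at a scaled distance of 0.0115, so almost exactly at the centre. The domain had no H3K27me3 region in the gene-trap cells.

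The promoters of 13 listed genes lay in domains without MTF2. The widest of these domains were those of Grin2d, an NMDA receptor subunit (5486 bp), Col1a1, the collagen I chain (4328 bp), Piwil2, a germline Piwi protein (3946 bp), Gabrb2, a GABA receptor subunit (3895 bp), B2m, the light chain of class I histocompatibility molecules (3505 bp), and Krt8, a keratin of simple epithelia (3260 bp). Piwil2 and B2m had 1 EZH2 region each, of 244 and 233 bp, and the other 4 none. Outside the lists, and with predicted genes passed over, the widest were at Pef1 (14353 bp), Fgf6, a fibroblast growth factor (12300 bp), and Grsf1, an RNA-binding protein (10646 bp). At Pef1, Grsf1 and Krt8 the gene start used lay outside the domain, which reached only into the 1 kb beside it.

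Domains with a single MTF2 peak ranged from nearly filled to nearly empty. At Six3, a homeobox regulator of forebrain and eye, the peak was 19222 bp long and covered 73.6% of a domain of 26117 bp (chr17:85604709-85630825), at a scaled distance of 0.204. Sox14, a neural regulator, had 57.7% of 16805 bp under MTF2 and Gata6, a regulator of endoderm, 52.8% of 15913 bp. At Dppa3, a germline and early embryo gene, the peak of 405 bp covered 2.97% of 13636 bp and lay off the transcription start. Wnt3, a ligand of the primitive streak, had a central peak of 4481 bp, 37.6% of 11904 bp, at a scaled distance of 0.0395. Gdf7, a ligand of the BMP family, had 52.9% of 10766 bp covered. Over all 3465 domains of the class the covered share ran from 0.657% to 100%.

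An off-centre single peak was found at Peg12, an imprinted gene. Its peak of 1729 bp crossed the domain's end by 12 bp, and 17347 bp of H3K27me3 lay on its other side. The peak covered the transcription start. Lhx4, a LIM homeobox regulator, had a central peak of 8233 bp, 37.1% of 22196 bp, at 0.0857.

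At the named genes with 2 peaks, MTF2 covered between 23.7% and 71.0% of the domain. Ebf3, a neural regulator, had peaks that covered 71.0% of 20635 bp, of which the wider was 14351 bp and lay at 0.0493. Tbx2, a T-box regulator of the heart, had 64.0% of 23215 bp covered, with a peak of 13583 bp. At Pax5, a regulator of B cells and midbrain, the peaks covered 31.2% of 24040 bp and stood on both sides of the domain centre. At Shh, the hedgehog ligand, they covered 65.0% of 13745 bp. The imprinted growth regulators Igf2, a growth factor, and Cdkn1c, a cell cycle inhibitor, had 41.2% of 16559 bp and 23.7% of 14154 bp covered. Outside the lists, Nkx1-1, a homeobox gene, had 27.3% of 22186 bp covered and Prdm12, a regulator of pain-sensing neurons, 44.9% of 17355 bp.

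The domains with the most peaks were the Hox clusters. The domain of Hoxb1 to Hoxb9 (chr11:96251550-96384802, 133253 bp) held 35 MTF2 peaks over 49.3% of its bases. The HoxA domain, from Hoxa2 to Hoxa13 (118123 bp), held 26 over 62.2%. Nr2f2, an orphan nuclear receptor, had 10 peaks over 47.8% of 52159 bp, and its relative Nr2f1 11 over 29.4% of 43186 bp. Hand2, a regulator of heart and limb, had 8 over 36.7% of 45955 bp. Cdkn2a, which shares its domain with Cdkn2b, had 8 over 22.6% of 40881 bp, and the widest of them lay near the edge, at 0.827. Outside the lists were Nfix, a nuclear factor I gene, with 11 peaks over 32.4% of 44192 bp, Commd3, in 1 domain with the PRC1 gene Bmi1, with 9 over 48.5% of 35068 bp, and Prickle1, a planar polarity gene, with 4 over 11.4% of 32604 bp.

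**Figure D4:**
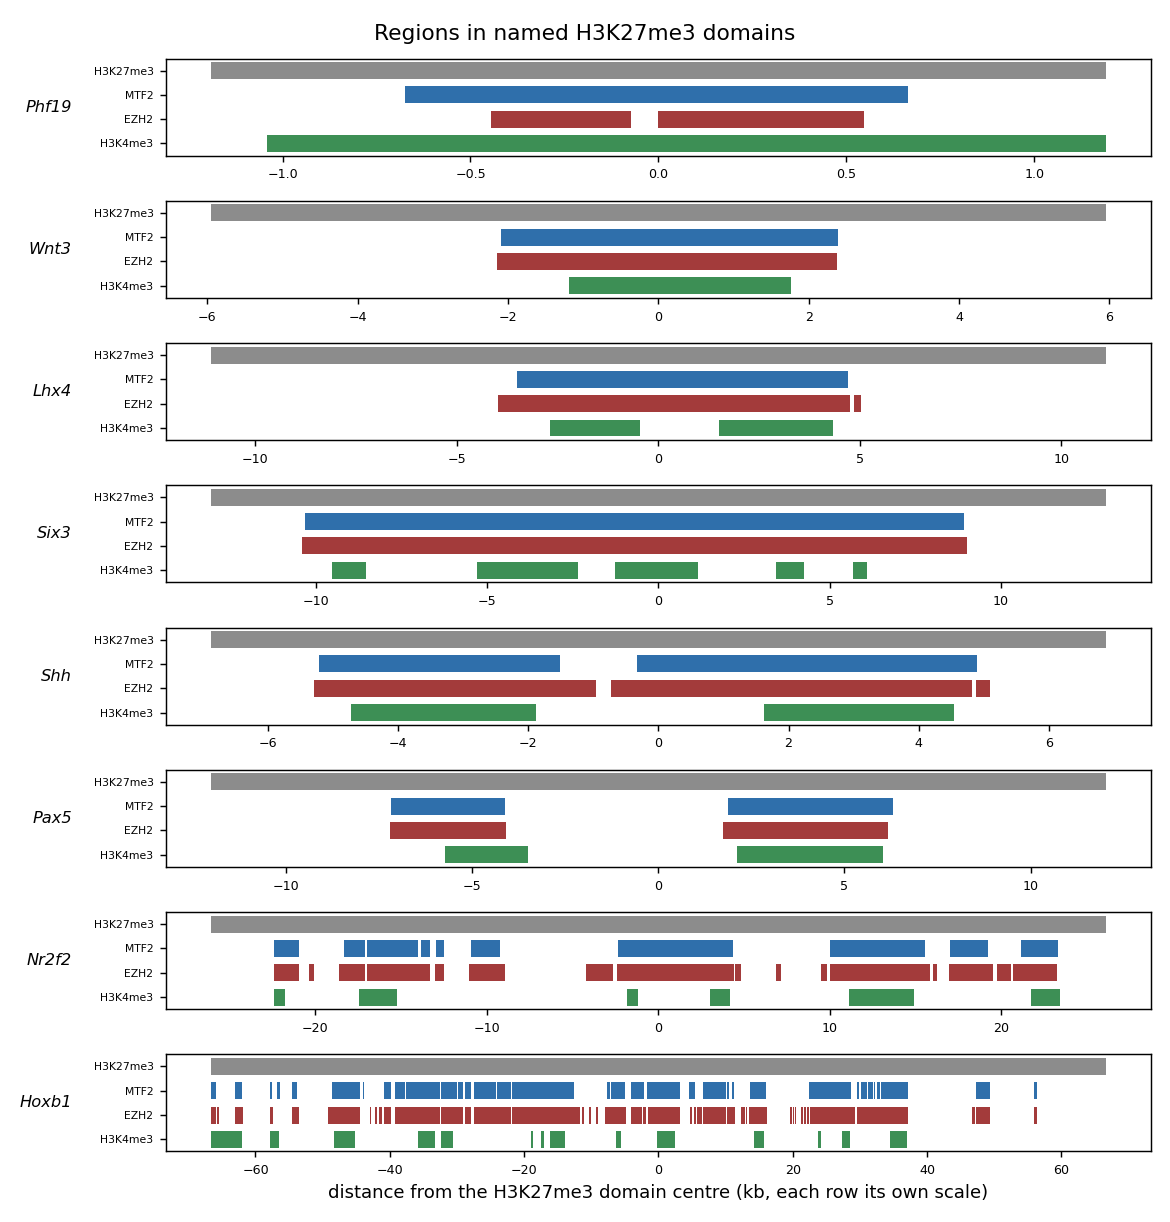
Regions of H3K27me3, MTF2, EZH2 and H3K4me3 in the domains of 8 named genes, in kb from the domain centre, each panel on its own scale. The MTF2 bars cover the middle of the Wnt3, Lhx4 and Six3 domains, stand to both sides of the centre at Pax5, and break into 35 peaks in the HoxB domain, which is labelled by Hoxb1.

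In gene-trap cells the domains with many MTF2 peaks kept an H3K27me3 region most often. A gene-trap H3K27me3 region touched 2.52% of domains without MTF2, 8.60% (7.69 to 9.58) with 1 peak, 24.2% (20.6 to 28.1) with 2 and 69.0% (63.7 to 74.0) with 3 or more. The gene-trap list is shorter, with 963 H3K27me3 regions against 6294, and was made separately at unknown depth, so a region that is not listed may also be one under the threshold. No MTF2 list of gene-trap cells was used, so the loss of MTF2 was not checked. Gene-trap EZH2 regions touched 0.151%, 1.24%, 5.18% and 38.1%. Width moved with this: in the widest of the 5 width classes the H3K27me3 shares were 24.4% (15.8 to 34.9), 28.7% (25.2 to 32.5), 38.4% (32.6 to 44.5) and 77.2% (71.9 to 81.9), where the median widths were 7886, 7185, 8484 and 15464 bp. In the next class, of 4231 to 6070 bp, the shares were 4.55%, 8.87% and 13.5% with 0, 1 and 2 peaks, and none of the 32 domains with 3 or more was touched (0 to 10.9%). So the order by peak number was not seen in every width class.

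**Figure D5:**
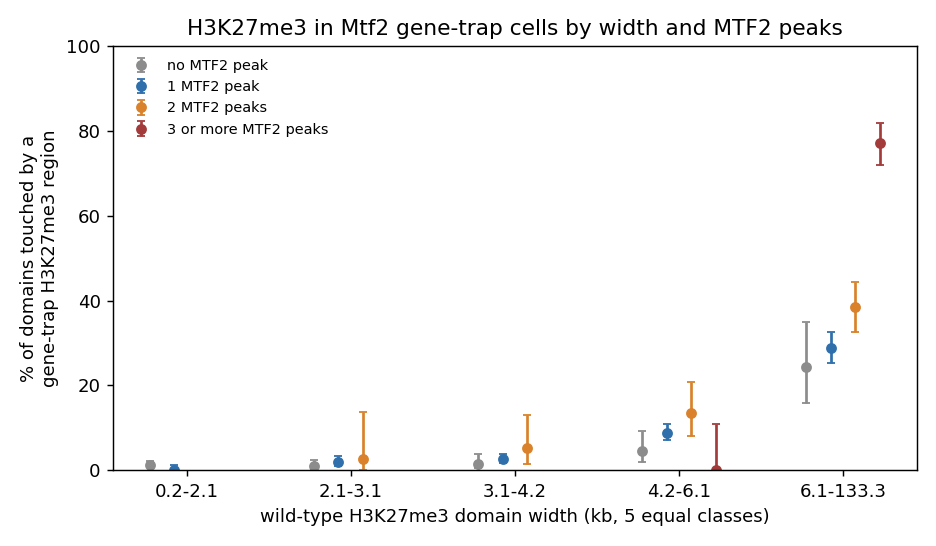
Percent of wild-type H3K27me3 domains touched by a gene-trap H3K27me3 region, by 5 equal classes of domain width and by MTF2 peaks in wild type, with 95% binomial intervals. Points with under 20 domains are left out. In the widest class the domains with 3 or more peaks stand at 77.2%, and in the class below none of 32 was touched.

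Within the 647 domains that held MTF2 and kept some H3K27me3 in gene-trap cells, 73.6% of the bases under wild-type MTF2 and 39.9% of the other bases were in a gene-trap H3K27me3 region. In the central 50% of the domain's bases the shares were 75.3% and 61.1%, and in the outer 50% 69.3% and 29.0%. More was kept outside MTF2 than under it in 126 of the 647 domains (19.5%, 16.5 to 22.7). With 3 or more peaks the shares under and outside MTF2 were 78.7% and 49.1%, and with 1 peak 62.0% and 29.2%. Of the named genes, Shh kept 91.6% of its domain, the HoxA domain 89.9%, Hand2 89.9% and Six3 86.3%. Wnt3 kept 16.9%, Prickle1 16.8%, and Gdf7 and Dppa3 none. Bcor, on the X chromosome, had 10 MTF2 peaks over 62.6% of 18611 bp and no gene-trap region; it lies outside the rule for named genes and was chosen after its values were seen.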

How the data were processed

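The authors deposited 1 list of region positions per group (chromosome, start, end), with no score, and each list stands for 2 libraries. Per the submitters' processing notes, CASAVA, BWA 0.7.10-r789 and MACS2 2.7 were used with mm10 (GRCm38). The list names carry the words MAnorm, a tool that compares ChIP-seq samples, and unbiased. How MAnorm was applied, the thresholds, the control and how the 2 libraries were combined are not given in the sources used here, and depth is unknown. All region ends lie inside the chromosomes of GRCm38.

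Starts were made 1-based. A peak belonged to a domain it touched by 1 bp. Gene starts were those of protein-coding transcripts in GENCODE M21, basic set, and a gene took the domain within 1 kb of a start that held most MTF2 peaks, then the widest. CpGs and printed sequences come from the RefSeq GRCm38 genome, without the 3 domains on a scaffold. Python 3.11.15, numpy 2.4.6 and scipy 1.17.1 were used, and the position measures were tested on simulated regions. The members, the 14 gene lists and the alternatives were chosen with earlier results of these data known. Of the 490 listed genes 487 were annotated. Named genes are, per class, the 6 listed genes with the widest domain, each domain once and at most 2 genes per list, then the 3 other genes with the widest domain, without predicted genes. PRC2 genes were always looked up. Of the genes this rule names, 2 are not reported here. The housekeeping list had 1 gene with a domain, B2m, and the pluripotency list 3, with 1 peak at 2 genes and 2 peaks at 1.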

Additional observations from a re-analysis of the deposited data

How the results depend on the processing

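No paired analysis was possible because each list pools both libraries of its group, and for the same reason no library could be left out in turn. Of 148 alternative values 111 stayed within 1.5 times the count, or inside the interval, of the reported one. None turned from central to outer placement, measured each time on peaks wholly inside a domain. Asking for the MTF2 midpoint or 50% of the peak in the domain, or a promoter window of 2.5 kb, moved no value that far. With MTF2 peaks under 1 kb apart joined, 226 domains held 2 peaks and 96 held 3 or more (medians of 10796 and 20531.5 bp, and 4189 bp with 1), 75.8% of peaks were in the central 50% (73.3% as reported) at a median scaled distance of 0.262 (0.290), and the covered share was 26.4% (25.8%). By gene, 202 had 2 peaks and 142 had 3 or more, and 93 of the listed genes had 3 or more in place of 166. With MTF2 peaks of 500 bp or more only, 283 and 192 domains held 2 and 3 or more, median widths from 0 to 3 or more peaks were 2302, 4513.5, 8296 and 18594.5 bp, the covered share 28.0%, and 75.2% of peaks (84.5% of single peaks) were in the central 50%, at 0.274. With domains under 3 kb apart joined, domains with 2 and 3 or more peaks had medians of 6622 and 15624.5 bp, and 71.2% of peaks were in the central 50%, at 0.303. With domains of 2 kb or more only, 1076 had no peak, medians were 2998.5 and 4192.5 bp with 0 and 1, and 84.5% of single peaks were in the central 50%. With the transcription start itself in the domain, 440 genes had no MTF2 peak in place of 740. Median width was larger with each step in peak number under the 6 settings of peaks and domains; it was not recomputed for the promoter settings, which leave it unchanged by construction.

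How many peaks a domain holds depends on whether close peaks are joined, while the share of single peaks in the central 50% stayed between 82.6% and 84.5% over the 6 settings. Peaks not wholly inside a domain were left out under every setting, so this range does not cover the effect of leaving them out. Depth and thresholds are unknown, so weak MTF2 peaks in domains without one, and domains split by a weak stretch, cannot be told from absent ones.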
